A study of Mus musculus with 68 samples.

Results

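The smooth muscle contractile genes are a list of 33 genes whose products build, switch or electrically drive the contractile apparatus of the myometrium, the muscle coat of the uterus. A member was taken as the probe set, the group of array probes read as 1 value, that carries its symbol and no other. Where a gene had several such probe sets, it was the probe set brightest on average across all 68 arrays of the series. Of the 33 genes, 32 were measured, out of 30142 genes tested. Pdlim7 had no probe set of its own. The list comprises 11 genes of the actin and myosin filaments and 4 grouped under myosin phosphorylation, among them Hspb6, a protein of muscle relaxation. It also holds 8 measured genes of the filament scaffold, 8 of membrane excitation and calcium, and the transcriptional coactivator Myocd.

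Smooth muscle shortens when calcium, entering through voltage-gated channels or released from stores, activates calmodulin and myosin light-chain kinase, which phosphorylates the regulatory light chain and lets myosin pull on actin. Myosin phosphatase reverses the step, and potassium channels of the membrane oppose the depolarization that opens the calcium channels. Transcription of most of the filament genes depends on serum response factor (SRF), which binds a DNA element called the CArG box and is driven in smooth muscle by its partner myocardin (the product of Myocd). In the uterus the oestrogens are known for their effects on growth and contractility of the muscle, and insulin-like growth factor 1 (IGF1) is a mediator of uterine growth.

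The arrays measured RNA of the uterus from ovariectomized female mice, 1 array per sample, in 25 groups of 2 or 3. The mice belonged to 3 sets, namely C57Bl6 wild types (14 arrays), Ex3aERKO mice (11 arrays) with wild-type littermates (14 arrays), and ERaUtcKO mice (15 arrays) with theirs (14 arrays). Ex3aERKO mice are Esr1-null, and so lack oestrogen receptor alpha (ERα), the product of that gene, in all tissues. In ERaUtcKO mice (Esr1f/f;PgrCre+) a floxed Esr1 is removed by Cre expressed under the Pgr promoter, so only cells in which that promoter has been active lose it. Each of the 5 kinds of mice received vehicle, 250 ng oestradiol (E2) intraperitoneally, or IGF1, and tissue was taken 2 h or 24 h later. IGF1 was given as 50 ug by injection or by an implanted osmotic pump filled at 0.5 mg/ml, and which mice had which route was not stated. Vehicle tissue was taken at 24 h only, so every 2 h comparison also spans that difference in time. The age of the mice was not given in the sources used here. The question put in the series title is whether ERα takes part in the response of the uterus to IGF1.

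The RefSeq promoters of 4 members, from 8 with a match, show the kind of element through which SRF and myocardin act. They cover the 250 bases before the gene start in GRCm38.p6, and capitals mark each match to the CArG box (CC, then 6 bases of A or T, then GG, either strand) with up to 1 G or C allowed among the 6 middle bases. Acta2 lies at chr19:34255374-34255623, minus strand, Myl9 at chr2:156775214-156775463, plus strand, Fhl1 at chrX:56779433-56779682, plus strand, and Jph2 at chr2:163397974-163398223, minus strand.
Acta2: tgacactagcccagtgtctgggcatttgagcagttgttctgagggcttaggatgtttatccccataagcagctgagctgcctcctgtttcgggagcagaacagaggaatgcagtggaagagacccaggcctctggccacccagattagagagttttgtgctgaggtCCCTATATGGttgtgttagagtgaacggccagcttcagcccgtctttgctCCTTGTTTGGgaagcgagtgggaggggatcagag
Myl9: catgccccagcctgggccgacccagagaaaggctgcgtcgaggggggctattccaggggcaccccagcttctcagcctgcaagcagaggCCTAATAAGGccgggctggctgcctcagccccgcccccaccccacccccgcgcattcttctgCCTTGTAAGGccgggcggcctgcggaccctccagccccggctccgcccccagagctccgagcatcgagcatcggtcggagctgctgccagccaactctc
Fhl1: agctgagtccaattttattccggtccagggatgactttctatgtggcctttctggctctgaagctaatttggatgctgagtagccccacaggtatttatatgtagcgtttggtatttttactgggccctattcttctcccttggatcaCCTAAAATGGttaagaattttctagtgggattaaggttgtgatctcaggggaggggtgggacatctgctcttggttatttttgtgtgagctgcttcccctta
Jph2: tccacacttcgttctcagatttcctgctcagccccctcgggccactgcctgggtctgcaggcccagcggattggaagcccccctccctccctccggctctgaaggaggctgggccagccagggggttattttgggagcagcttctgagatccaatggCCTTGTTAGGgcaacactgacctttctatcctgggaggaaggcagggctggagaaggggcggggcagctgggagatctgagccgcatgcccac

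Acta2 held matches 84 to 75 and 34 to 25 bases before the start. Those of Myl9 lay at 161 to 152 and 99 to 90 bases, that of Fhl1 at 102 to 93, and that of Jph2 at 93 to 84. RefSeq promoters were available for 27 of the 32 measured members, and not for Actg2, Myh11, Tagln, Myocd and Nexn. Some genes have several starts in the table, Fhl1 and Jph2 among them, of which one is printed, and a gene counts as holding an element if any of its windows does. The strict element was in 2 of the 27 (7.41%, Fhl1 and Myl9), against 1.62% of 27025 genes. With 1 G or C allowed it was in 8 (29.6%), against 9.78% of genes. These matches describe letters in a 250-base window and say nothing of binding.

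Members' log2 intensities ran from 5.19 (Chrm2) to 18.9 (Acta2), above the median of the antigenomic background probes on every array, which lay between 3.28 and 4.45. The smooth muscle markers Acta2, Actg2, Myh11, Cnn1, Tagln, Des, Smtn and Lmod1 were all far above that background. Levels differed between the mouse sets. Under vehicle, Des averaged 14.3 in C57Bl6 wild types and 10.8 and 11.0 in the wild types of the Ex3aERKO and ERaUtcKO sets, and Hspb6 averaged 8.89, 6.86 and 6.84. The mouse set and the occasion on which its arrays were run cannot be told apart, so comparisons stay inside a set, or the model takes out the set's mean. Esr1 under vehicle was lower than in littermates by a log2 difference of -2.39 ± 0.19 (SE, adjusted p = 1.8e-06) in Ex3aERKO and -1.21 ± 0.11 (SE, adjusted p = 3.66e-07) in ERaUtcKO, in limma. In 10 arrays, 9 of them from 2 h groups, adipocyte markers averaged more than 2 log2 units above vehicle. The labels do not say that replicates came from separate animals, so p-values measure the spread between these samples. The authors had left out outlier arrays, and 7 groups hold 2 arrays. A module level, as plotted by array, is the mean over the 32 members of the difference from the set's wild-type vehicle mean.

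**Figure D1:**
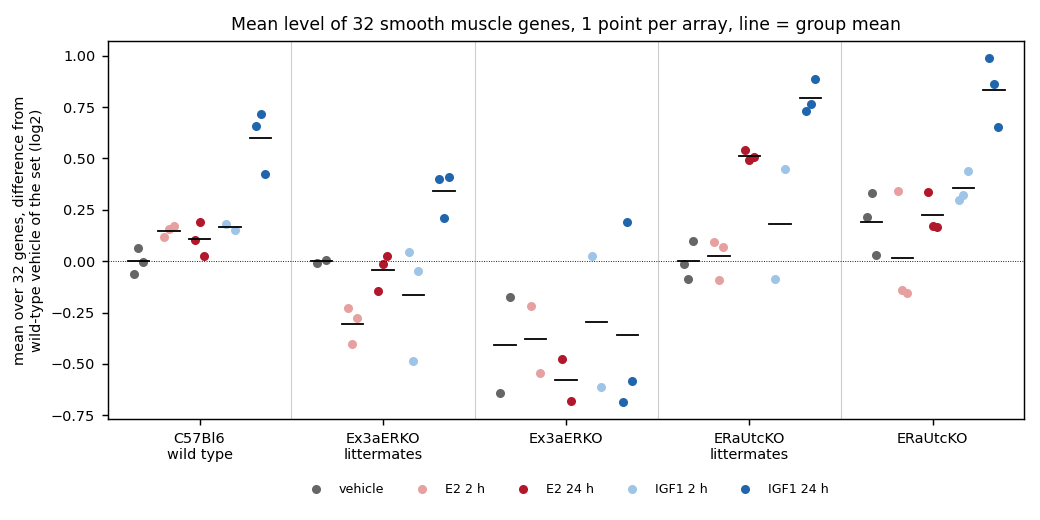
Mean log2 difference of the 32 measured contractile genes from the wild-type vehicle mean of the same mouse set, 1 point per array, in all 25 groups. With IGF1 at 24 h the arrays lay at 0.42 to 0.72 in C57Bl6 wild types and 0.65 to 0.99 in ERaUtcKO mice, while with E2 at 24 h they lay at 0.03 to 0.19 and 0.17 to 0.34. Ex3aERKO littermates lay at 0.21 to 0.41 with IGF1 and -0.15 to 0.03 with E2. Littermates of ERaUtcKO lay at 0.73 to 0.89 and 0.49 to 0.54, and Ex3aERKO mice at -0.68 to 0.19 and -0.68 to -0.48. Vehicle arrays lay at 0.03 to 0.33 in ERaUtcKO and -0.64 to -0.17 in Ex3aERKO mice.

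In wild types at 24 h, both hormones raised most of the filament genes, and IGF1 raised more of the list than E2 did. Differences here and below are in log2 intensity, with the standard error (SE) of the limma model of 42 wild-type arrays. A gene "rose" or "fell" where its p, adjusted over all genes tested, was under 0.05. With E2 against vehicle 14 members rose and 12 fell, where 24.5% of all genes rose and 31.7% fell. With IGF1 22 rose and 4 fell, against 19.3% and 21.6% of all genes. The median member difference was 0.07 with E2 and 0.50 with IGF1, beside -0.07 and -0.06 over all genes. Both comparisons use the same vehicle arrays. Fewer or more muscle cells and less or more RNA per muscle cell cannot be told apart in whole uterus. Quantile normalization moved the median of all genes with E2 from -0.07 to 0.05 and the members' counts to 14 and 10, and centring on array medians gave 14 and 7. For IGF1 either scaling gave 22 and 1. Each set was also fitted alone, and the difference between sets was not tested. With E2, in C57Bl6 mice 10 rose and 9 fell, against 19.6% and 16.6% of all genes. In the Ex3aERKO littermates 7 rose and 9 fell, against 18% and 13.2%. In those of ERaUtcKO 16 rose and 6 fell, against 20.7% and 32.3%. With IGF1, in C57Bl6 mice 23 rose and 2 fell, against 14.4% and 11.5% of all genes. In the Ex3aERKO littermates 8 rose and 1 fell, against 4.61% and 2.34%. In those of ERaUtcKO 21 rose and 1 fell, against 16.9% and 23.3%.

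Actg2, the enteric-type gamma actin of visceral smooth muscle, had the largest rise of the list with either hormone. In C57Bl6 mice it read 14.28, 14.83 and 14.82 under vehicle, 16.64, 16.75 and 16.37 with E2 and 17.14, 17.18 and 16.83 with IGF1. Wild-type littermates of Ex3aERKO mice gave 12.77 and 12.32, then 15.07, 15.01 and 15.14, and 15.30, 14.39 and 14.85. The ERaUtcKO littermates gave 12.89, 12.63 and 12.57, then 15.68, 15.51 and 15.66, and 15.67, 15.46 and 15.72. In each set every treated array exceeded every vehicle array. The rise was 2.49 ± 0.16 (SE, adjusted p = 2.94e-16) with E2, or 5.63-fold, and 2.57 ± 0.16 (SE, adjusted p = 4.04e-15) with IGF1, or 5.94-fold. Between IGF1 and E2 the difference was 0.08 ± 0.16 (SE, adjusted p = 0.786), with a 95% confidence interval -0.24 to 0.40.

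Acta2, smooth muscle alpha actin, read 18.07, 18.13 and 18.08 under vehicle, 18.59, 18.58 and 18.62 with E2 and 18.81, 18.90 and 18.66 with IGF1 in C57Bl6 mice. The Ex3aERKO littermates gave 17.98 and 17.91, then 18.15, 18.28 and 18.32, and 18.55, 18.20 and 18.50. Those of ERaUtcKO gave 17.21, 17.22 and 17.53, then 18.35, 18.31 and 18.38, and 18.47, 18.61 and 18.56. Treated and vehicle arrays did not overlap in any set. The rise was 0.65 ± 0.10 (SE, adjusted p = 3.27e-07) with E2 and 0.84 ± 0.10 (SE, adjusted p = 4.48e-09) with IGF1. Neither passed in the Ex3aERKO littermates fitted alone, at 0.30 (adjusted p = 0.159) and 0.47 (adjusted p = 0.0886). Myl9, the regulatory light chain that the kinase phosphorylates, rose by 1.33 ± 0.22 (SE, adjusted p = 1.52e-06) and 1.65 ± 0.22 (SE, adjusted p = 6.05e-08). Its C57Bl6 arrays read 16.15, 16.45 and 16.52 under vehicle, 17.15, 17.09 and 17.03 with E2 and 17.61, 17.48 and 17.07 with IGF1. In the Ex3aERKO littermates they were 16.24 and 16.05, then 16.76, 17.11 and 17.18, and 17.54, 17.11 and 17.49, and in those of ERaUtcKO 14.60, 14.75 and 15.78, then 17.31, 17.14 and 17.39, and 17.53, 17.55 and 17.66. Here too no treated array reached down to vehicle.

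Cnn1, calponin, and Tagln, transgelin, are actin-binding proteins of differentiated smooth muscle. Cnn1 read 15.09, 15.41 and 15.57 under vehicle, 16.30, 16.46 and 16.38 with E2 and 16.81, 17.03 and 16.32 with IGF1 in C57Bl6 mice. For the Ex3aERKO littermates the values were 14.72 and 14.71, then 15.50, 15.49 and 15.66, and 15.99, 15.49 and 16.09, and in those of ERaUtcKO 13.68, 13.51 and 13.98, then 15.77, 15.63 and 15.66, and 15.92, 15.96 and 16.06. It rose by 1.31 ± 0.15 (SE, adjusted p = 1.49e-09) with E2 and by 1.62 ± 0.15 (SE, adjusted p = 4.33e-11) with IGF1. The treated arrays of every set were above their vehicle arrays. Tagln read 15.51, 15.64 and 15.64, then 16.25, 16.37 and 16.04, and 16.49, 16.71 and 16.10 in C57Bl6 mice. Its values were 14.26 and 14.41, then 14.99, 15.34 and 15.38, and 15.36, 14.92 and 15.08 in the Ex3aERKO littermates, and 13.36, 13.55 and 14.17, then 15.38, 15.44 and 15.43, and 15.16, 15.26 and 15.31 in those of ERaUtcKO. The rises of Tagln, 1.11 ± 0.14 with E2 and 1.08 ± 0.14 with IGF1, were close, and the difference between the hormones was -0.03 ± 0.14 (SE, adjusted p = 0.923).

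Myh11, the smooth muscle myosin heavy chain, was higher with IGF1 than with E2. It read 16.19, 16.47 and 16.16 under vehicle, 16.58, 16.65 and 16.56 with E2 and 17.22, 17.16 and 16.87 with IGF1 in C57Bl6 mice. In the Ex3aERKO littermates the values were 16.19 and 15.93, then 16.02, 16.04 and 16.16, and 16.46, 16.44 and 16.93, and in those of ERaUtcKO 15.64, 15.48 and 15.60, then 16.21, 16.01 and 16.15, and 16.51, 16.60 and 16.76. IGF1 arrays exceeded E2 arrays in each set, and E2 arrays overlapped vehicle in the Ex3aERKO littermates. The rise was 0.34 ± 0.12 (SE, adjusted p = 0.0141) with E2 and 0.84 ± 0.12 (SE, adjusted p = 2.18e-07) with IGF1, and the difference between them was 0.51 ± 0.11 (SE, adjusted p = 0.000566). Neither rise passed in the Ex3aERKO littermates alone, at 0.02 (adjusted p = 0.966) with E2 and 0.55 (adjusted p = 0.164) with IGF1. Fitted alone, neither the Ex3aERKO nor the ERaUtcKO littermates gave an adjusted p under 0.05 for that difference (0.072 and 0.059). Of the 11 filament genes, 8 rose and 1 (Cald1, caldesmon) fell with E2, 10 rose and none fell with IGF1, and 6 were higher with IGF1 than with E2. The 6 were Lmod1, Myh11, Smtn, Cald1, Tpm2 and Tpm1, with differences of 0.55, 0.51, 0.48, 0.46, 0.35 and 0.34.

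The 4 genes grouped under myosin phosphorylation were all higher with IGF1 than with E2 at 24 h. Ppp1r14a (CPI-17, an inhibitor of myosin phosphatase) rose by 0.70 ± 0.20 (SE, adjusted p = 0.0025) with E2 and by 1.32 ± 0.20 (SE, adjusted p = 8.14e-07) with IGF1, a difference of 0.62 ± 0.19 (SE, adjusted p = 0.012). Ppp1r12b, a targeting subunit of the phosphatase itself, fell by 0.59 ± 0.08 (SE, adjusted p = 1.16e-07) with E2. With IGF1 its fall was 0.21 ± 0.08 (SE, adjusted p = 0.0439), a call that was lost under quantile normalization (0.176), centring (0.201) and a replicate block (0.063), in the Ex3aERKO and ERaUtcKO littermates fitted alone (0.184 and 0.905), and without C57Bl6 vehicle replicate 2, C57Bl6 IGF1 24 h replicate 2 or 3, Ex3aERKO littermate vehicle replicate 2 or 3, Ex3aERKO littermate IGF1 24 h replicate 1, ERaUtcKO littermate vehicle replicate 3 or ERaUtcKO littermate IGF1 24 h replicate 2 (adjusted p 0.053 to 0.115). Its arrays read 9.85, 9.87 and 9.86 under vehicle and 9.74, 9.43 and 9.39 with IGF1 in C57Bl6 mice, 9.46 and 9.48 and 9.01, 9.16 and 9.17 in the Ex3aERKO littermates, and 9.22, 9.19 and 9.45 and 9.25, 9.12 and 9.43 in those of ERaUtcKO, where they overlapped. Hspb6, a small heat-shock protein of muscle relaxation, rose by 0.37 with E2 and by 0.85 with IGF1. Mylk, the light-chain kinase, rose by 0.48 with IGF1 and differed by 0.05 ± 0.08 (SE, adjusted p = 0.602) with E2, which did not pass.

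Des, desmin, the intermediate filament of muscle, rose with either hormone. Its C57Bl6 arrays read 14.27, 14.33 and 14.33 under vehicle, 15.15, 15.28 and 14.87 with E2 and 15.61, 16.04 and 15.18 with IGF1. In the Ex3aERKO littermates they read 10.64 and 10.91, then 11.84, 12.15 and 12.28, and 12.07, 11.87 and 12.32, and in those of ERaUtcKO 10.91, 10.72 and 11.24, then 13.02, 13.15 and 13.09, and 13.25, 13.06 and 13.38. The treated arrays lay above vehicle in each set while E2 and IGF1 arrays overlapped. The rise was 1.42 ± 0.18 (SE, adjusted p = 6.17e-09) with E2 and 1.64 ± 0.18 (SE, adjusted p = 9.44e-10) with IGF1. Flna, the actin crosslinker filamin A, rose by 1.07 and 1.30.

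Other scaffold genes went down with E2. Synm, synemin, a partner of desmin, fell by 0.69 ± 0.10 (SE, adjusted p = 4.06e-07) with E2 and differed by -0.16 ± 0.10 (SE, adjusted p = 0.217) with IGF1. In C57Bl6 mice Synm read 10.44, 10.55 and 10.22 under vehicle, 9.79, 9.99 and 9.82 with E2 and 10.63, 10.84 and 10.30 with IGF1, so that only the E2 arrays stood apart. It read 9.85 and 9.65, then 8.71, 8.85 and 8.69, and 9.22, 9.49 and 9.05 in the Ex3aERKO littermates, and 10.24, 9.86 and 9.92, then 9.59, 9.37 and 9.27, and 9.50, 9.68 and 10.10 in those of ERaUtcKO. Synpo2, an actin-bundling synaptopodin, fell by 0.33 ± 0.10 (SE, adjusted p = 0.0057) with E2 and rose by 0.53 ± 0.10 (SE, adjusted p = 6.22e-05) with IGF1, and the difference was 0.87 ± 0.10 (SE, adjusted p = 6.1e-09). Its E2 and IGF1 arrays were 12.13, 12.31 and 12.11 against 13.24, 13.09 and 13.01 in C57Bl6 mice, 11.49, 11.40 and 11.50 against 12.59, 12.33 and 12.49 in the Ex3aERKO littermates, and 12.14, 12.02 and 11.90 against 12.50, 12.72 and 12.84 in those of ERaUtcKO. None of these pairs of groups overlapped. Nexn, nexilin, another actin-binding protein, moved by -0.29 with E2 and 0.35 with IGF1, both called over the pooled sets, which differed. Group means of Nexn minus vehicle were 0.027 with E2 and 0.869 with IGF1 in C57Bl6 mice. They were -0.454 and -0.026 in the Ex3aERKO littermates, and -0.51 and 0.145 in those of ERaUtcKO. Fhl1, a LIM-domain protein of muscle, fell by 0.39 ± 0.09 (SE, adjusted p = 0.000316) with E2. It fell by 0.25 ± 0.09 (SE, adjusted p = 0.0255) with IGF1, a call that was lost under quantile normalization (0.141) and centring (0.119), in each of the 3 sets fitted alone (adjusted p 0.475, 0.0591 and 0.304), and without C57Bl6 vehicle replicate 2, C57Bl6 IGF1 24 h replicate 1, Ex3aERKO littermate vehicle replicate 3 or ERaUtcKO littermate IGF1 24 h replicate 2 (adjusted p 0.0531 to 0.0949). Fhl1 read 11.42, 11.66 and 11.34 under vehicle and 11.08, 11.69 and 11.17 with IGF1 in C57Bl6 mice, 8.67 and 8.98 and 8.24, 8.45 and 8.27 in the Ex3aERKO littermates, and 8.62, 8.82 and 8.71 and 8.72, 8.33 and 8.63 in those of ERaUtcKO. Only the Ex3aERKO littermates separated.

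**Figure D2:**
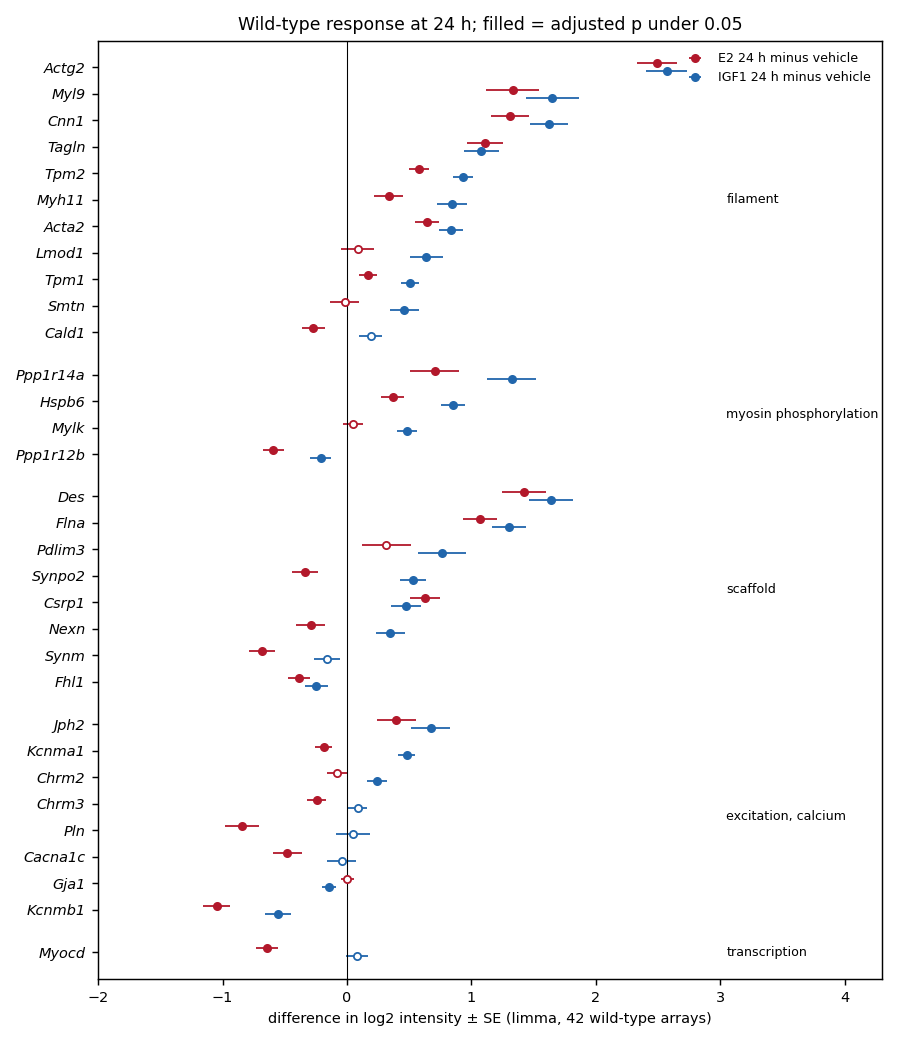
Difference from vehicle at 24 h in wild types for each member (log2, with SE), E2 and IGF1 side by side and grouped by role, with filled symbols for an adjusted p under 0.05 in limma. Most filament genes lie to the right with either hormone, and Kcnmb1, at -1.05 with E2 and -0.55 with IGF1, lies to the left with both.

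Genes of excitation and calcium handling mostly fell with E2 in the pooled wild types. Of 8, 1 rose (Jph2, junctophilin 2, which couples store and surface membranes) and 5 fell. With IGF1 3 rose (Jph2, Kcnma1 and Chrm2) and 2 fell (Kcnmb1 and Gja1). The whole list had 12 falls with E2, and 7 after centring on array medians. Chrm3, among the 5, differed from vehicle by -0.107 in C57Bl6 mice, -0.65 in the Ex3aERKO littermates and -0.051 in those of ERaUtcKO. Kcnmb1, the beta subunit of the large-conductance calcium-activated potassium channel, read 12.14, 12.53 and 12.27 under vehicle, 11.55, 11.41 and 11.34 with E2 and 11.92, 12.11 and 11.75 with IGF1 in C57Bl6 mice. In the Ex3aERKO littermates it read 10.83 and 10.97, then 9.22, 9.34 and 9.60, and 10.28, 10.23 and 9.95, and in those of ERaUtcKO 10.79, 10.76 and 10.83, then 9.94, 9.85 and 9.98, and 10.15, 9.93 and 10.37. Both hormones left every treated array under every vehicle array of its set. The fall was 1.05 ± 0.11 (SE, adjusted p = 6.38e-11) with E2 and 0.55 ± 0.11 (SE, adjusted p = 5.85e-05) with IGF1. Kcnma1, the pore-forming subunit of the same channel, fell by 0.19 ± 0.07 (SE, adjusted p = 0.019) with E2 and rose by 0.48 ± 0.07 (SE, adjusted p = 3.52e-07) with IGF1, a difference of 0.67 ± 0.07 (SE, adjusted p = 1.78e-10).

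Pln, phospholamban, which restrains the calcium pump of the store, read 10.23, 10.62 and 10.03 under vehicle, 9.98, 9.95 and 10.06 with E2 and 11.12, 10.71 and 10.56 with IGF1 in C57Bl6 mice. In the Ex3aERKO littermates the values were 9.89 and 9.84, then 8.40, 8.47 and 8.57, and 10.31, 9.50 and 9.16, and in those of ERaUtcKO 9.92, 9.92 and 9.87, then 9.15, 8.93 and 8.79, and 9.68, 9.72 and 9.57. E2 arrays lay below IGF1 arrays in each set, but in C57Bl6 mice they overlapped vehicle. Pln fell by 0.84 ± 0.14 (SE, adjusted p = 1.29e-06) with E2, and in C57Bl6 mice fitted alone that was -0.30 (adjusted p = 0.149). With IGF1 the difference was 0.05 ± 0.14 (SE, adjusted p = 0.804), and between the hormones it was 0.89 ± 0.13 (SE, adjusted p = 9.12e-07). Cacna1c, the pore of the L-type calcium channel, fell by 0.48 with E2 and was higher with IGF1 than with E2 by 0.44 ± 0.11 (SE, adjusted p = 0.00306). Its E2 difference was -0.617 in C57Bl6 mice, -0.873 in the Ex3aERKO littermates and -0.062 in those of ERaUtcKO. Gja1, the main gap-junction connexin of the myometrium, was the single member called lower with IGF1 than with E2, with a difference of -0.15 ± 0.05 (SE, adjusted p = 0.0312). Its E2 and IGF1 arrays were 7.69, 7.69 and 7.69 against 7.49, 7.67 and 7.51 in C57Bl6 mice, 6.55, 6.63 and 6.64 against 6.46, 6.42 and 6.47 in the Ex3aERKO littermates, and 7.01, 7.31 and 7.12 against 7.04, 6.96 and 6.97 in those of ERaUtcKO, where they overlapped. The Gja1 call was lost in each set fitted alone and without C57Bl6 IGF1 24 h replicate 1, Ex3aERKO littermate IGF1 24 h replicate 1, 2 or 3 or ERaUtcKO littermate E2 24 h replicate 2 (adjusted p 0.0503 to 0.0848).

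Myocd, which activates SRF on many of these genes, fell with E2, while its difference with IGF1 did not pass. It read 10.38, 10.46 and 10.38 under vehicle, 9.60, 9.65 and 9.57 with E2 and 10.31, 10.59 and 10.51 with IGF1 in C57Bl6 mice. Littermates of the Ex3aERKO line read 8.50 and 8.70, then 7.51, 7.98 and 7.89, and 8.51, 8.41 and 8.58, and those of ERaUtcKO 8.94, 8.81 and 8.99, then 8.58, 8.47 and 8.60, and 9.08, 9.07 and 9.28. Every E2 array was under every vehicle and every IGF1 array of its set. The fall with E2 was 0.64 ± 0.09 (SE, adjusted p = 6.08e-08), the difference with IGF1 was 0.08 ± 0.09 (SE, adjusted p = 0.492), and IGF1 minus E2 was 0.72 ± 0.09 (SE, adjusted p = 1.08e-08).

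In the direct comparison of IGF1 with E2 at 24 h, which uses no vehicle array, 20 of 32 members were higher with IGF1 and 1 was lower, where 12.9% of all genes were higher and 15.3% lower. The median member difference was 0.41 and that of all genes 0.00. By role the higher members were 6 of 11 filament genes, 4 of 4 of myosin phosphorylation, 3 of 8 of the scaffold, 6 of 8 of excitation and calcium, and Myocd. In each set fitted alone, 19 members were higher in C57Bl6 mice, 11 in the Ex3aERKO littermates and 6 in those of ERaUtcKO, against 5.44%, 7.25% and 3.74% of all genes. The difference was above 0 in all 3 sets for 26 of 32 members and for 25.2% of all genes. All IGF1 arrays exceeded all E2 arrays of each set in 10 members, against 4.29% of all genes, and these were Myh11, Tpm1, Tpm2, Cald1, Smtn, Mylk, Synpo2, Kcnma1, Pln and Myocd. Of the 14 members that rose over vehicle with both hormones, 9 were not called between them (Actg2, Des, Cnn1, Myl9, Tagln, Flna, Acta2, Csrp1 and Jph2) and 5 were higher with IGF1 (Ppp1r14a, Tpm2, Hspb6, Myh11 and Tpm1). For Acta2 the difference was 0.19 ± 0.09 (95% confidence interval 0.00 to 0.38).

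Cell-type markers moved in the same comparison. The mean of 10 epithelial markers stood at 1.48 to 1.57 above vehicle on the E2 arrays of C57Bl6 mice, 2.21 to 2.34 in the Ex3aERKO littermates and 2.11 to 2.28 in those of ERaUtcKO. On the IGF1 arrays it stood at -0.16 to 0.08, at 0.43 to 0.54 and at 0.44 to 0.48. Of the 10, 9 were lower with IGF1 than with E2 and none higher. Higher with IGF1 were 5 of 8 endothelial, 6 of 9 macrophage, 3 of 4 mesothelial and 4 of 10 vascular mural markers, with none lower, and 3 of 11 stromal markers with 2 lower. None of 5 adipocyte markers was called in limma, and 0 had an unadjusted p under 0.05. The part of these shifts in the contractile genes' differences was not tested.

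Genes outside the list that belong to the same machinery gave the following counts at 24 h in wild types. Of 11 other smooth muscle genes, 3 rose and 6 fell with E2, 3 rose and 3 fell with IGF1, and 7 were higher and none lower with IGF1 than with E2. Dmd, dystrophin, fell by 2.54 ± 0.12 (SE, adjusted p = 3.09e-20) with E2 and 1.64 ± 0.12 (SE, adjusted p = 1.26e-13) with IGF1. Of 15 genes of SRF, adhesion and the general cytoskeleton, 10 rose and 3 fell with E2, 10 rose and 2 fell with IGF1, and 3 were higher and 1 lower with IGF1 than with E2. Srf itself rose by 1.04 ± 0.17 (SE, adjusted p = 2.71e-06) with E2 and by 1.00 ± 0.17 (SE, adjusted p = 1.21e-05) with IGF1. Of 17 genes of contraction signalling, 5 rose and 9 fell with E2, 7 rose and 5 fell with IGF1, and 9 were higher and none lower with IGF1. Ptger3, a prostaglandin E receptor, rose by 1.80 ± 0.20 (SE, adjusted p = 1.73e-09) with IGF1, and Pde5a, the cyclic GMP phosphodiesterase, fell by 1.83 ± 0.13 (SE, adjusted p = 3.94e-15) with E2 and 1.11 ± 0.13 (SE, adjusted p = 6.54e-09) with IGF1. Of 13 skeletal muscle genes, 3 rose and 3 fell with E2 and 4 rose and 2 fell with IGF1, among them Acta1, skeletal alpha actin, up by 2.03 and 2.32, and 3 were higher and none lower with IGF1 than with E2.

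Among the genes of those lists with the largest changes, Casq2, the calcium-storing calsequestrin, rose by 0.69 with E2 and 0.69 with IGF1, and Tns1, the adhesion protein tensin, fell by 0.90 and 0.34. Tagln2, a relative of Tagln, rose by 2.53 and 1.27, and Mrtfb, another SRF coactivator, fell by 0.57 and 0.34. Rhoa, the GTPase that restrains myosin phosphatase through its kinase, rose by 1.05 and 0.94, and Prkg1, the cyclic GMP-dependent kinase of relaxation, fell by 1.15 and 0.73. Against vehicle, the vascular mural list had 3 of 10 higher and 3 lower with E2 and 6 higher and 1 lower with IGF1, with Abcc9, a potassium channel regulator, at -1.42 and -0.45. Epithelial markers had 9 of 10 higher with E2 and 4 with IGF1, and stromal ones 6 of 11 higher and 2 lower with E2 and 8 and 1 with IGF1. Endothelial markers had 4 of 8 lower with E2 and 2 higher with IGF1, macrophage markers 3 of 9 lower and 5 higher, mesothelial markers 1 of 4 lower and 3 higher, and adipocyte markers 2 of 5 lower with either.

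At 2 h the list split by gene rather than moving together. With E2 9 members rose and 14 fell, where 17.2% of all genes rose and 22.8% fell, and with IGF1 10 rose and 10 fell, against 16.9% and 19%. The counts of the sets fitted alone are balanced otherwise, and the difference between sets was not tested. With E2, in C57Bl6 mice 9 rose and 6 fell, in the Ex3aERKO littermates 3 rose and 12 fell, and in those of ERaUtcKO 7 rose and 8 fell, against 13.5% and 16.1%, 11.1% and 11.3%, and 13.4% and 17% of all genes. With IGF1, in C57Bl6 mice 10 rose and 5 fell, in the Ex3aERKO littermates 5 rose and 8 fell, and in those of ERaUtcKO 8 rose and 3 fell, against 11.7% and 11.1%, 10.6% and 9.13%, and 9.91% and 10% of all genes. Centring on array medians gave 9 and 9 with E2 and 10 and 6 with IGF1, and quantile normalization gave 10 and 7 with IGF1. Compared with each other, 10 members were higher and 4 lower with IGF1, against 12.4% and 9.6% of all genes. All 2 h groups are set against vehicle taken at 24 h, and 9 arrays of 2 h groups had adipocyte markers more than 2 above vehicle, whose part was not tested. Left out, those arrays changed none of the member counts of the wild types by more than 1.5 times.

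Jph2 and Ppp1r14a had the largest early rises with E2. Jph2 read 8.51, 8.58 and 8.63 under vehicle and 11.22, 10.59 and 11.19 with E2 in C57Bl6 mice, 7.33 and 7.54 and 9.11, 8.23 and 8.96 in the Ex3aERKO littermates, and 7.86, 7.69 and 7.77 and 8.97, 8.93 and 8.99 in those of ERaUtcKO. It rose by 1.68 ± 0.16 (SE, adjusted p = 7.89e-12) with E2, with no overlap in any set. With IGF1 it read 9.53 and 9.19, then 7.77, 7.22 and 7.54, and 7.93 and 8.38 in the same order of sets and was lower than with E2 by a difference of -1.25 ± 0.16 (SE, adjusted p = 6.7e-08). Ppp1r14a read 12.17, 12.31 and 12.37 under vehicle, 14.06, 13.76 and 14.38 with E2 and 12.08 and 12.18 with IGF1 in C57Bl6 mice. Its values in the Ex3aERKO littermates were 9.71 and 10.24, then 11.40, 11.05 and 12.03, and 9.51, 8.42 and 9.38, and in those of ERaUtcKO 9.93, 10.31 and 10.73, then 12.23, 12.15 and 11.33, and 9.60 and 10.50. It rose by 1.64 ± 0.20 (SE, adjusted p = 4.32e-09) with E2, and IGF1 minus E2 was -2.10 ± 0.21 (SE, adjusted p = 6.54e-11). Gja1 read 8.54, 8.43 and 8.44 with E2 and 7.55 and 7.69 with IGF1 in C57Bl6 mice, 7.44, 7.40 and 7.25 and 6.64, 6.99 and 6.69 in the Ex3aERKO littermates, and 7.99, 7.67 and 7.73 and 7.16 and 7 in those of ERaUtcKO. No E2 array of Gja1 came down to an IGF1 array, and the difference was -0.70 ± 0.06 (SE, adjusted p = 3.16e-13).

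Des and Smtn were the members most raised early by IGF1 relative to E2. Des read 15.05, 14.91 and 15.15 with E2 and 15.84 and 15.83 with IGF1 in C57Bl6 mice, 11.46, 10.98 and 11.23 and 13.20, 13.26 and 12.85 in the Ex3aERKO littermates, and 12.24, 11.68 and 11.84 and 12.43 and 13.71 in those of ERaUtcKO. Its rise over vehicle was 2.06 ± 0.19 (SE, adjusted p = 9.11e-12) with IGF1 and 0.72 ± 0.18 (SE, adjusted p = 0.000813) with E2. Smtn, smoothelin, a marker of contractile smooth muscle, read 13.19, 13.21 and 13.21 under vehicle, 12.83, 12.86 and 12.80 with E2 and 14.11 and 14.07 with IGF1 in C57Bl6 mice. The Ex3aERKO littermates read 10.01 and 10.18, then 9.47, 9.24 and 9.10, and 11.22, 10.60 and 11.10, and those of ERaUtcKO 9.88, 10.01 and 10.12, then 9.78, 9.37 and 9.76, and 10.40 and 11.11. It fell by 0.51 ± 0.11 (SE, adjusted p = 0.000347) with E2 and rose by 0.88 ± 0.12 (SE, adjusted p = 1.63e-07) with IGF1, and the groups of the 2 hormones were apart in each set. Cnn1 rose early with both, by 0.87 ± 0.15 (SE, adjusted p = 7.91e-06) with E2 and 1.09 ± 0.16 (SE, adjusted p = 5.92e-07) with IGF1. The E2 difference in the Ex3aERKO littermates alone was 0.48 (adjusted p = 0.176). It read 16.25, 16.08 and 16.25 with E2 and 16.46 and 16.27 with IGF1 in C57Bl6 mice, 15.53, 14.81 and 15.25 and 15.77, 15.19 and 15.76 in the Ex3aERKO littermates, and 15.24, 14.73 and 14.75 and 14.37 and 15.58 in those of ERaUtcKO.

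Pln and Myocd fell early with both hormones. Pln read 8.44, 8.58 and 8.51 with E2 and 9.98 and 10.03 with IGF1 in C57Bl6 mice, 7.60, 7.42 and 7.86 and 8.75, 8.32 and 8.60 in the Ex3aERKO littermates, and 7.74, 7.50 and 7.68 and 8.59 and 9.33 in those of ERaUtcKO. It fell by 2.06 ± 0.14 (SE, adjusted p = 3.73e-16) with E2, or 4.18-fold, and by 0.84 ± 0.15 (SE, adjusted p = 7.81e-06) with IGF1, and in C57Bl6 mice alone the IGF1 difference was -0.29 (adjusted p = 0.291). E2 arrays of Pln lay under the IGF1 arrays in every set, and IGF1 minus E2 was 1.22 ± 0.14 (SE, adjusted p = 3.76e-09). Myocd read 9.31, 9.57 and 9.41 with E2 and 9.77 and 9.91 with IGF1 in C57Bl6 mice, 7.50, 7.56 and 7.74 and 7.98, 7.27 and 8.01 in the Ex3aERKO littermates, and 7.94, 7.85 and 8.32 and 8.65 and 8.66 in those of ERaUtcKO, all below vehicle. Its fall was 0.93 ± 0.09 (SE, adjusted p = 1.06e-11) with E2 and 0.56 ± 0.09 (SE, adjusted p = 4.64e-06) with IGF1.

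Further early falls came from Pdlim3, a PDZ and LIM protein of the actin scaffold, with E2 and from Ppp1r12b and Synm with IGF1. Pdlim3 read 16.04, 16.16 and 16.05 under vehicle and 15.57, 15.79 and 15.81 with E2 in C57Bl6 mice, 14.24 and 14.31 and 12.77, 12.59 and 12.66 in the Ex3aERKO littermates, and 13.29, 13.38 and 13.82 and 13.04, 12.86 and 12.96 in those of ERaUtcKO. It fell by 0.79 ± 0.20 (SE, adjusted p = 0.000973), and in the ERaUtcKO littermates alone the difference was -0.55 (adjusted p = 0.0735). Ppp1r12b read 9.06 and 9.15 with IGF1 in C57Bl6 mice, 8.42, 7.93 and 8.49 in the Ex3aERKO littermates and 8.46 and 8.74 in those of ERaUtcKO, each below every vehicle array of its set, and it fell by 0.87 ± 0.09 (SE, adjusted p = 2.04e-10). Synm, at 9.74 and 9.84, at 9.13, 8.57 and 8.77 and at 9 and 9.44 in the same order, fell by 0.75 ± 0.11 (SE, adjusted p = 5.27e-07) and was likewise below vehicle throughout.

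**Figure D3:**
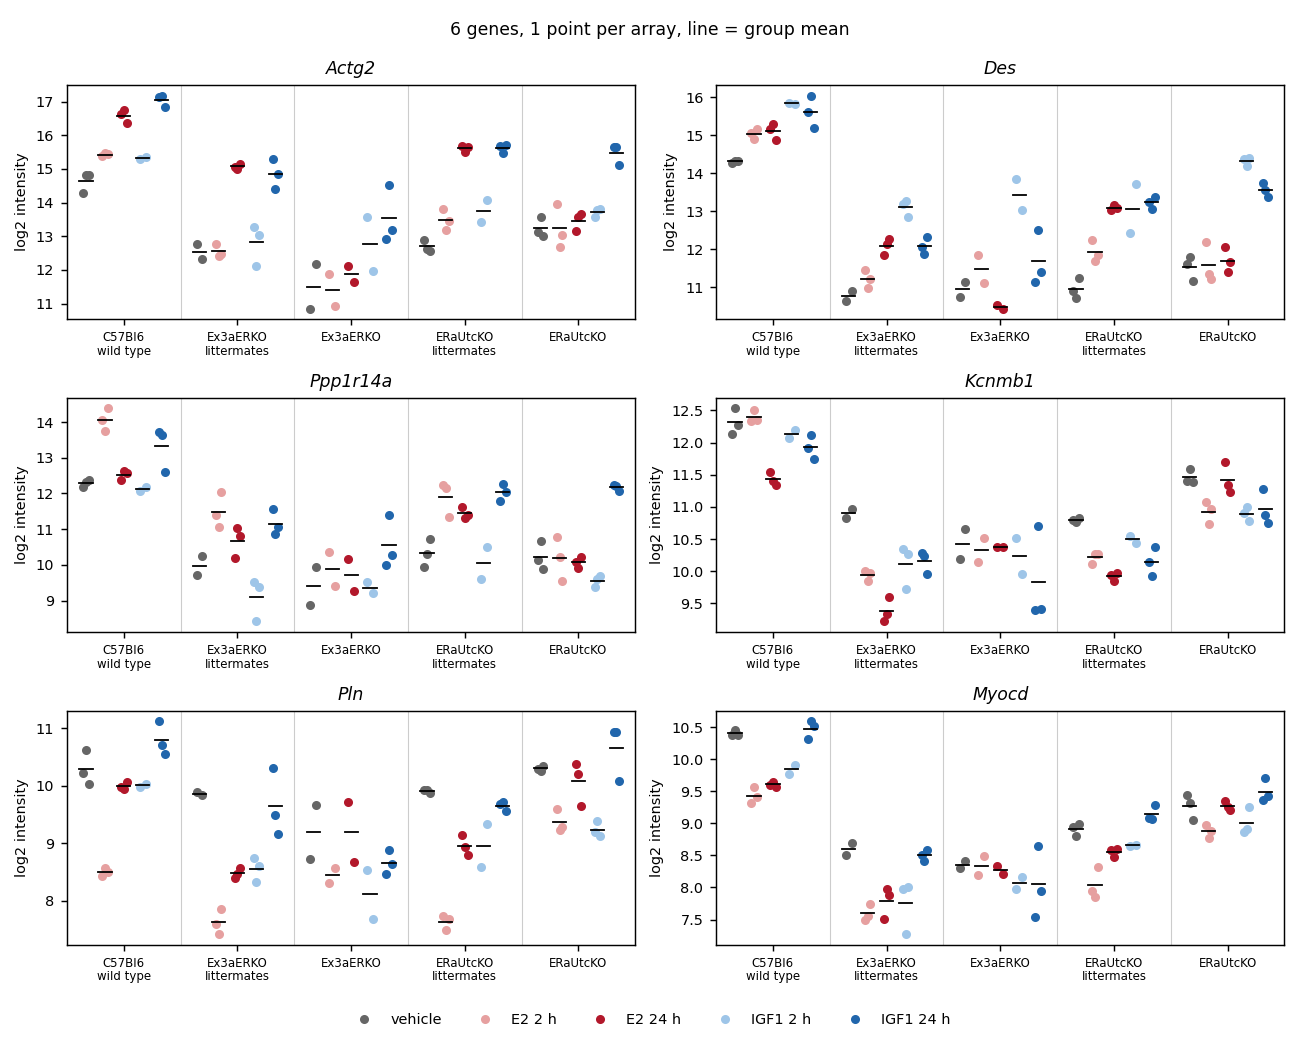
Log2 intensity of Actg2, Des, Ppp1r14a, Kcnmb1, Pln and Myocd on every array, by kind of mouse and treatment, 1 point per array. In ERaUtcKO mice the Actg2 arrays with E2 at 24 h, at 13.16, 13.56 and 13.65, lie with vehicle, and those with IGF1, at 15.65, 15.64 and 15.11, lie with the treated wild types.

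Under vehicle, few members differed between ERaUtcKO mice and their littermates, and those were higher in the knockout. In the model of 29 arrays 3 members were higher and none lower, which is 3 of 32 where 2.01% of all genes were higher and 2.16% lower. Kcnmb1 read 10.79, 10.76 and 10.83 in littermates and 11.40, 11.59 and 11.39 in the knockout, a difference of 0.67 ± 0.13 (SE, adjusted p = 0.00369). Chrm3, the muscarinic receptor that couples to store release, read 6.64, 6.63 and 6.56 against 7.05, 7.09 and 7.20, a difference of 0.50 ± 0.12 (SE, adjusted p = 0.0215). Hspb6 read 6.79, 6.67 and 7.05 against 7.18, 7.39 and 7.35, a difference of 0.47 ± 0.13 (SE, adjusted p = 0.0337). The groups were apart for all 3. In all, 7 members were apart with the knockout higher and 1 with it lower, against 7.27% and 12.8% of all genes. The Chrm3 and Hspb6 calls were lost when any 1 of 4 arrays was left out (littermate vehicle replicate 1 or 2, or knockout vehicle replicate 2 or 3), which left 1 call.

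No other member passed under vehicle in ERaUtcKO. Over all 32 members the median difference was 0.15 (all genes -0.05). Actg2 read 12.89, 12.63 and 12.57 in littermates and 13.12, 13.58 and 13 in the knockout, a difference of 0.54 ± 0.24 (adjusted p = 0.242, 95% confidence interval 0.03 to 1.04). Des, at 10.91, 10.72 and 11.24 against 11.61, 11.80 and 11.17, differed by 0.57 ± 0.26 (adjusted p = 0.253). Myocd, at 8.94, 8.81 and 8.99 against 9.44, 9.31 and 9.05, differed by 0.35 ± 0.12 (adjusted p = 0.122), with no overlap. None of Acta2, Myh11, Cnn1 and Tagln passed either, at 0.09, 0.20, 0.34 and 0.28. Acta2 read 17.41, 17.69 and 17.12 and Myh11 15.78, 16.01 and 15.53 in the knockout. Of the cell-type lists, 1 of 10 vascular mural markers was higher, and no epithelial, stromal, endothelial, macrophage, mesothelial or adipocyte marker was called in limma, where 4, 3, 1, 0, 2 and 0 of them in that order had an unadjusted p under 0.05.

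In Ex3aERKO mice under vehicle most members read lower than in littermates but few passed. With 2 arrays on each side, limma on 25 arrays called none higher and 2 lower, beside 1.56% of all genes higher and 1.4% lower. The median difference was -0.43 (all genes 0.02). In 20 members both knockout arrays were below both littermate arrays and in 4 above, where 21.2% and 25% of all genes were. Cacna1c read 10.54 and 10.48 in littermates and 9.11 and 9.33 in the knockout, a difference of -1.29 ± 0.24 (SE, adjusted p = 0.00449). Fhl1 read 8.67 and 8.98 against 7.82 and 8.27, a difference of -0.78 ± 0.20 (SE, adjusted p = 0.0391). The Fhl1 call was lost under quantile normalization (0.0752), with a replicate block (0.0541) and without the arrays high in adipocyte markers (0.0565). The Cacna1c call was lost without Ex3aERKO vehicle replicate 2 (adjusted p = 0.0896). The Fhl1 call was lost without Ex3aERKO littermate vehicle replicate 2 or 3 or Ex3aERKO vehicle replicate 2 (adjusted p 0.0785 to 0.46). Quantile normalization gave 1 higher and 1 lower.

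These counts change with single arrays. Of 28 named calls in the Ex3aERKO experiment, 23 were lost when at least 1 array was left out. Without knockout vehicle replicate 2 no member was called, without littermate vehicle replicate 2 or 3 there was 1, and without knockout vehicle replicate 3 there were 3. That replicate 2 had the lower module level of the pair, which were at -0.64 to -0.17. The filament genes show the spread. Actg2 read 12.77 and 12.32 in littermates and 10.85 and 12.16 in the knockout, a difference of -1.04 ± 0.55 (SE, adjusted p = 0.452). Myl9 read 16.24 and 16.05 against 14.11 and 15.16, a difference of -1.51 ± 0.56 (SE, adjusted p = 0.191). Acta2 read 17.98 and 17.91 against 16.63 and 17.56, a difference of -0.85 ± 0.35 (SE, adjusted p = 0.269). None of these passed although the groups were apart for each. Cnn1, at 13.54 and 14.67 in the knockout, Tagln, at 13.17 and 14.25, and Myh11, at 15.24 and 16.10, spread widely too and did not pass. Des, at 10.74 and 11.15, and Myocd, at 8.30 and 8.41, differed from littermates by 0.17 ± 0.35 and -0.25 ± 0.27.

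Epithelial markers were higher in the same Ex3aERKO vehicle arrays, with 5 of 10 called and a mean over the list of 0.71 to 0.93 against -0.13 to 0.13 in littermates. Stromal markers averaged -0.51 to -0.23 against -0.07 to 0.07 (1 of 11 higher, 1 lower), and macrophage markers -0.94 to -0.44 against -0.14 to 0.14 with none of 9 called in limma and 3 at an unadjusted p under 0.05. The adipocyte mean ran over -0.74 to 1.77. The part of these in the contractile genes' lower readings was not tested.

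**Figure D4:**
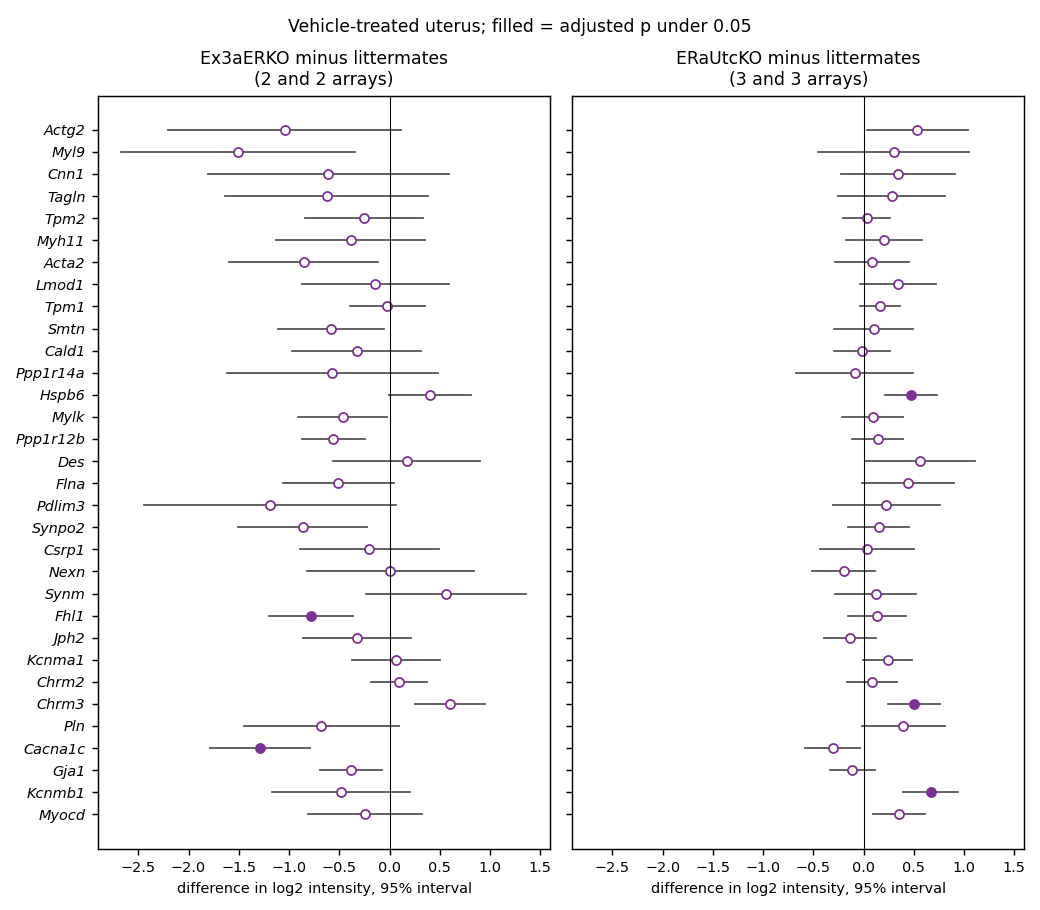
Knockout minus littermate difference under vehicle for each member (log2, with 95% confidence interval), in Ex3aERKO (2 against 2 arrays) and ERaUtcKO (3 against 3 arrays). Intervals are wider in Ex3aERKO, where Myl9 has a 95% confidence interval -2.67 to -0.34, than in ERaUtcKO, where it has a 95% confidence interval -0.45 to 1.05.

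At 24 h in ERaUtcKO mice, IGF1 raised 18 of the 32 contractile genes and E2 moved none detectably. With E2 against vehicle no member was called, in limma over 29 arrays, and none had an unadjusted p under 0.05, with 0% of all genes called. With IGF1 18 members rose and 1 fell, against 16.9% and 15.5% of all genes. Between IGF1 and E2, 19 were higher and 1 lower with IGF1, against 16.4% and 13.9%. Both responses use the same knockout vehicle arrays, and the last comparison does not. In the same IGF1 against vehicle comparison 8 of 11 stromal markers rose and 1 fell, and 5 of 10 epithelial, 4 of 9 macrophage and 3 of 4 mesothelial markers rose, whose part was not tested.

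Actg2 read 13.12, 13.58 and 13 under vehicle, 13.16, 13.56 and 13.65 with E2 and 15.65, 15.64 and 15.11 with IGF1 in ERaUtcKO mice. The IGF1 arrays were above all others and the E2 arrays overlapped vehicle. It rose by 2.24 ± 0.24 (SE, adjusted p = 2.65e-07) with IGF1, or 4.71-fold, and differed by 0.22 ± 0.24 with E2 (95% confidence interval -0.28 to 0.73). Des, at 11.61, 11.80 and 11.17, then 12.05, 11.39 and 11.67, and 13.73, 13.56 and 13.38, rose by 2.03 ± 0.26 (SE, adjusted p = 2.36e-06) with IGF1 and by no detectable amount with E2 (95% confidence interval -0.36 to 0.72). Ppp1r14a, at 10.15, 10.66 and 9.89, then 10.07, 9.91 and 10.23, and 12.25, 12.21 and 12.08, rose by 1.94 ± 0.28 (SE, adjusted p = 9.7e-06) with IGF1. Its IGF1 arrays too cleared all the others.

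By role, 10 of 11 filament genes rose with IGF1 in ERaUtcKO mice, 3 of 4 of myosin phosphorylation, 4 of 8 of the scaffold and 1 of 8 of excitation and calcium. Acta2 read 17.41, 17.69 and 17.12 under vehicle, 17.73, 17.47 and 17.43 with E2 and 18.68, 18.43 and 18.17 with IGF1 and rose by 1.02 ± 0.18 (SE, adjusted p = 9.41e-05) with IGF1. Cnn1, at 13.97, 14.49 and 13.75, then 14.17, 13.93 and 14.31, and 16, 15.84 and 15.33, rose by 1.66 ± 0.27 (SE, adjusted p = 5.14e-05). Tagln, at 13.96, 14.38 and 13.59, then 14.34, 14.08 and 13.80, and 15.58, 15.33 and 15.24, rose by 1.41 ± 0.26 (SE, adjusted p = 0.000161). In these 3 genes, as in Myh11, at 15.78, 16.01 and 15.53, then 15.97, 15.72 and 15.68, and 16.81, 16.83 and 16.40, IGF1 arrays stood above vehicle and E2 arrays overlapped it. Myh11 rose by 0.91 ± 0.18 (SE, adjusted p = 0.000458).

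Kcnmb1 was the member that fell with IGF1 in ERaUtcKO mice. It read 11.40, 11.59 and 11.39 under vehicle, 11.69, 11.34 and 11.23 with E2 and 11.28, 10.88 and 10.75 with IGF1, and fell by 0.49 ± 0.13 (SE, adjusted p = 0.00537) against vehicle. Against E2 it was lower by a difference of -0.45 ± 0.13 (SE, adjusted p = 0.0108), a call lost without ERaUtcKO IGF1 24 h replicate 3 or ERaUtcKO E2 24 h replicate 1 (adjusted p 0.0828 to 0.0956). Myocd, at 9.44, 9.31 and 9.05, then 9.35, 9.25 and 9.21, and 9.36, 9.70 and 9.42, was not called with either hormone.

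The E2 response of ERaUtcKO mice differed from that of littermates by an interaction test in 14 members. For 13 the knockout's response was lower and for 1 higher, where 15.5% and 17.3% of all genes were called. Actg2 had the largest interaction, -2.70 ± 0.34 (SE, adjusted p = 2.69e-06), or 6.48-fold, from littermates that went from 12.89, 12.63 and 12.57 to 15.68, 15.51 and 15.66. Des followed at -1.95 ± 0.37 (SE, adjusted p = 0.00031) and Cnn1 at -1.89 ± 0.39 (SE, adjusted p = 0.000634). Others below 0 were Myl9, Tagln, Flna, Ppp1r14a, Csrp1, Acta2, Tpm2, Hspb6, Jph2 and Tpm1, between -1.85 and -0.45. Kcnmb1, which fell with E2 in littermates, had an interaction of 0.83 ± 0.19 (SE, adjusted p = 0.00158). Over all genes the median interaction was 0.13 as deposited and -0.06 after quantile normalization. Epithelial markers had 8 of 10 interactions below 0 and stromal markers 6 of 11 with 2 above, and the part of these was not tested.

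For IGF1 at 24 h no member's response was found to differ between ERaUtcKO mice and littermates. Limma called 0 of 32 and 0.0498% of all genes, and 3 members had an unadjusted p under 0.05. The intervals still admit sizeable differences. Actg2 had an interaction of -0.68 ± 0.34 (95% confidence interval -1.40 to 0.03), Des of -0.24 ± 0.37 (95% confidence interval -1.01 to 0.53), Acta2 of -0.21 ± 0.25 (95% confidence interval -0.73 to 0.31) and Kcnma1 of -0.63 ± 0.17 (95% confidence interval -0.97 to -0.28, adjusted p = 0.162). Kcnma1 read 8.25, 8.14 and 8.08 under vehicle and 8.63, 8.29 and 8.62 with IGF1 in littermates, and 8.45, 8.22 and 8.51 and 8.33, 7.99 and 8.06 in the knockout. It was higher with IGF1 in littermates and overlapped vehicle in the knockout.

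The gap between IGF1 and E2 at 24 h differed between ERaUtcKO mice and littermates in 14 members, with IGF1 minus E2 higher in the knockout for 11 and lower for 3, against 16.1% and 12.9% of all genes. Quantile normalization gave 12 and 2, and centring 11 and 1. Actg2 had an interaction of 2.01 ± 0.34 (SE, adjusted p = 8.81e-05), Des of 1.71 ± 0.37 (SE, adjusted p = 0.00101) and Ppp1r14a of 1.53 ± 0.40 (SE, adjusted p = 0.0048). In littermates Ppp1r14a read 11.62, 11.32 and 11.39 with E2 and 11.79, 12.26 and 12.04 with IGF1. Below 0 were Kcnmb1 at -0.67 ± 0.19 (SE, adjusted p = 0.00768), Ppp1r12b at -0.55 ± 0.17 (SE, adjusted p = 0.0169) and Kcnma1 at -0.52 ± 0.17 (SE, adjusted p = 0.0193). Ppp1r12b read 8.97, 8.96 and 8.94 with E2 and 9.25, 9.12 and 9.43 with IGF1 in littermates, and 9.62, 9.27 and 9.33 and 9.43, 9.08 and 8.98 in the knockout. For Kcnma1 the E2 arrays were 8.06, 7.92 and 8.17 in littermates and 8.28, 8.07 and 8.20 in the knockout. Under quantile normalization and centring Ppp1r12b (0.106 and 0.0687) and Kcnma1 (0.262 and 0.0528) did not pass. The Ppp1r12b call was lost without ERaUtcKO littermate IGF1 24 h replicate 3, ERaUtcKO IGF1 24 h replicate 3 or ERaUtcKO E2 24 h replicate 1 (adjusted p 0.0566 to 0.0618). The Kcnma1 call was lost without ERaUtcKO littermate IGF1 24 h replicate 1 or 3, ERaUtcKO littermate E2 24 h replicate 2, ERaUtcKO IGF1 24 h replicate 2 or ERaUtcKO E2 24 h replicate 1 (adjusted p 0.0525 to 0.0581).

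**Figure D5:**
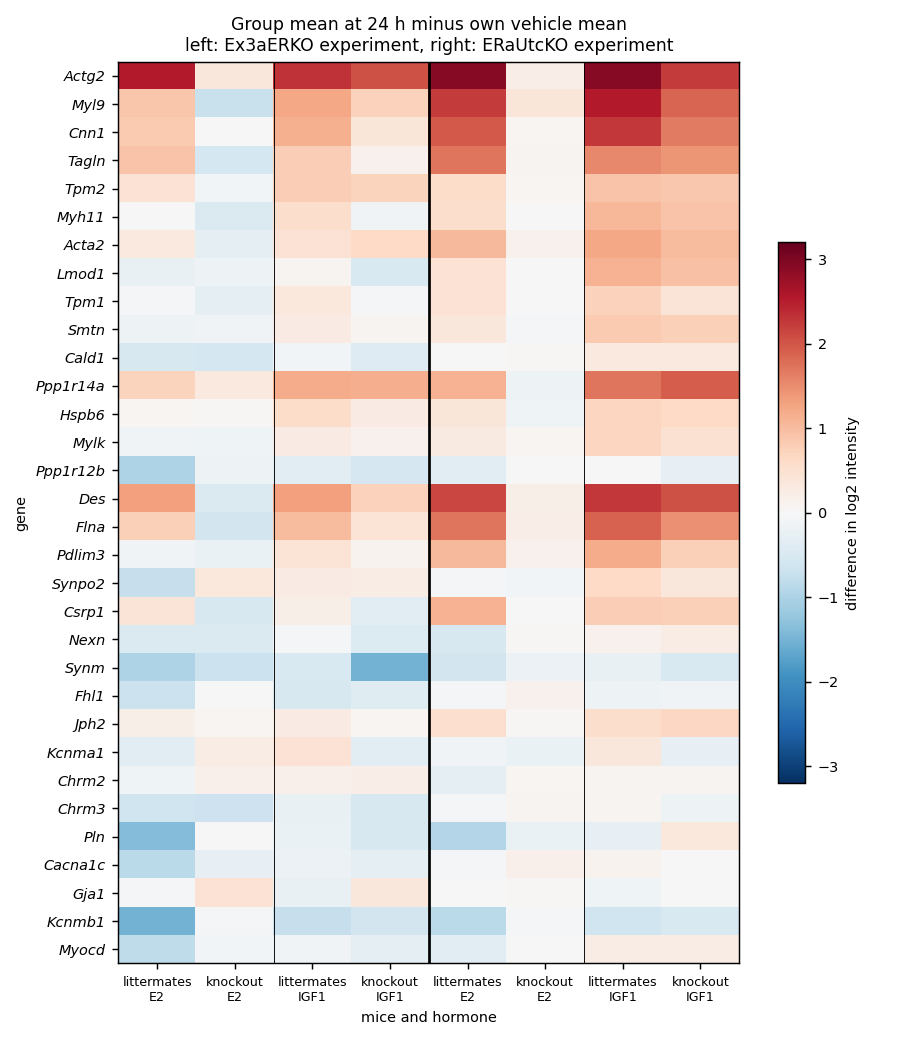
Difference from vehicle at 24 h (log2) of each member, in colour, for E2 and IGF1, with members grouped by role. The mice shown are Ex3aERKO, ERaUtcKO and the wild-type littermates of each, without the C57Bl6 set. Values run from -1.52 to 2.92, and the E2 column of ERaUtcKO mice lies between -0.22 and 0.39.

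In Ex3aERKO mice at 24 h few members passed. With E2 no member was called in limma, 3 had an unadjusted p under 0.05 and 0% of all genes were called. With IGF1 1 rose and 3 fell, against 11.7% and 6.86% of all genes. Quantile normalization gave 2 and 2. Actg2 read 10.85 and 12.16 under vehicle, 12.11 and 11.63 with E2 and 12.91, 14.53 and 13.18 with IGF1, with all IGF1 arrays above the rest. It rose by 2.03 ± 0.51 (SE, adjusted p = 0.00792) with IGF1. Synm, at 10.03 and 10.59 under vehicle and 8.50, 9.35 and 8.52 with IGF1, fell by 1.52 ± 0.35 (SE, adjusted p = 0.00432). Ppp1r12b, at 8.94 and 8.87 and 8.29, 8.60 and 8.24, fell by 0.53 ± 0.14 (SE, adjusted p = 0.0103), and Chrm3, at 7.27 and 6.91 and 6.52, 6.72 and 6.49, by 0.51 ± 0.15 (SE, adjusted p = 0.0225). These 3 were below vehicle on every array. The Actg2 call was lost without Ex3aERKO vehicle replicate 2 (adjusted p = 0.199). The Synm call was lost without Ex3aERKO vehicle replicate 3 (adjusted p = 0.0679). The Ppp1r12b call was lost without Ex3aERKO vehicle replicate 2 (adjusted p = 0.106). The Chrm3 call was lost without Ex3aERKO vehicle replicate 2 or Ex3aERKO IGF1 24 h replicate 1 or 3 (adjusted p 0.0592 to 0.335). Chrm3 did not pass after quantile normalization either (-0.40, adjusted p = 0.0518).

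The second IGF1 array of the Ex3aERKO mice stood above the other 2 over most of the list, the module level running over -0.68 to 0.19. Without it 7 members were called, and without knockout vehicle replicate 2 there was 1. Acta2 read 16.95 and 16.67 with E2 and 17.31, 18.32 and 17.57 with IGF1, Cnn1 14.20 and 13.99 and 13.76, 15.61 and 14.08, and Tagln 13.28 and 13.03 and 13.18, 14.78 and 13.55. Myh11 read 15.28 and 15.13 and 15.20, 16.33 and 15.15, and Myocd 8.34 and 8.21 and 7.54, 8.65 and 7.95. The high array is the second of each 3. None of the 5 genes was called against vehicle.

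Between IGF1 and E2 in Ex3aERKO mice 4 members were higher and 1 lower with IGF1, against 10.4% and 8.84% of all genes. Quantile normalization gave 2 and 0, and centring 5 and 0. Actg2 differed by 1.67 ± 0.51 (SE, adjusted p = 0.0275). Des, at 10.53 and 10.44 with E2 and 11.15, 12.51 and 11.40 with IGF1, differed by 1.21 ± 0.32 (SE, adjusted p = 0.0131), and Flna, at 13.46 and 13.54 and 14.06, 15.15 and 14.35, by 1.02 ± 0.24 (SE, adjusted p = 0.00655). All their IGF1 arrays were above their E2 arrays. Tpm2, a tropomyosin, was higher by 0.79. Kcnma1, at 7.84 and 8.06 and 7.14, 7.68 and 7.26, was lower by a difference of -0.59 ± 0.19 (SE, adjusted p = 0.037), the opposite order to wild types. Without knockout E2 replicate 1 no member was called and without replicate 3 only 1. The Actg2 call was lost without Ex3aERKO E2 24 h replicate 1 or 3 or Ex3aERKO IGF1 24 h replicate 2 (adjusted p 0.0706 to 0.175). The Des call was lost without Ex3aERKO E2 24 h replicate 1 or 3 or Ex3aERKO IGF1 24 h replicate 2 (adjusted p 0.0532 to 0.0822). The Flna call was lost without Ex3aERKO E2 24 h replicate 1 (adjusted p = 0.0541). The Kcnma1 call was lost without Ex3aERKO E2 24 h replicate 1 or 3 or Ex3aERKO IGF1 24 h replicate 1 or 3 (adjusted p 0.0755 to 0.228). Quantile normalization also ended the calls of Actg2 and Kcnma1 (adjusted p 0.0641 and 0.12), and centring that of Kcnma1 (0.0665).

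Few members passed the interaction test in the Ex3aERKO experiment. For E2 at 24 h 2 members were above 0 and 2 below, against 6.34% and 10.5% of all genes, and quantile normalization gave 3 and 2 and centring 2 and 3. Des had an interaction of -1.78 ± 0.47 (SE, adjusted p = 0.0139), Flna of -1.35 ± 0.36 (SE, adjusted p = 0.0134), Ppp1r12b of 0.84 ± 0.20 (SE, adjusted p = 0.00785) and Kcnmb1 of 1.47 ± 0.44 (SE, adjusted p = 0.0284). Kcnmb1 read 10.19 and 10.65 under vehicle and 10.38 and 10.37 with E2 in the knockout, which overlap, whereas the littermates fell. Flna read 14.71 and 14.50 and 15.18, 15.52 and 15.39 in littermates and 13.85 and 14.34 under knockout vehicle. Ppp1r12b read 8.46, 8.52 and 8.44 in littermates and 8.77 and 8.73 in the knockout with E2. Actg2, at -2.16 ± 0.75 (SE, adjusted p = 0.0561), did not pass. In the same test 7 of 10 epithelial markers and 4 of 11 stromal markers were below 0 and 1 stromal marker was above, whose part was not tested. Leaving out littermate vehicle replicate 2 or 3 left 2 calls. The Des call was lost without Ex3aERKO littermate vehicle replicate 2 or Ex3aERKO vehicle replicate 3 (adjusted p 0.0562 to 0.0675). The Flna call was lost without Ex3aERKO littermate vehicle replicate 3 or Ex3aERKO vehicle replicate 3 (adjusted p 0.0604 to 0.0798). The Kcnmb1 call was lost without Ex3aERKO littermate vehicle replicate 2 or 3, Ex3aERKO littermate E2 24 h replicate 1, Ex3aERKO vehicle replicate 2 or Ex3aERKO E2 24 h replicate 1 or 3 (adjusted p 0.055 to 0.114).

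For IGF1 at 24 h limma called no member's response different between Ex3aERKO mice and littermates, with 2 at an unadjusted p under 0.05 and 0.0133% of all genes called. Actg2 had an interaction of -0.27 ± 0.72 (95% confidence interval -1.77 to 1.23) and Acta2 of 0.17 ± 0.46 (95% confidence interval -0.79 to 1.13), intervals too wide to tell a like response from a much smaller one. The gap between IGF1 and E2 differed in 9 members, 2 above 0 and 7 below, against 15.1% and 11.6% of all genes. Quantile normalization gave 0 and 5, and centring 2 and 4. Actg2 had 1.89 ± 0.68 (SE, adjusted p = 0.0463) and Des 1.21 ± 0.43 (SE, adjusted p = 0.0428). Pln had -1.70 ± 0.45 (SE, adjusted p = 0.00843), Kcnma1 -1.37 ± 0.25 (SE, adjusted p = 0.000541) and Synm -1.34 ± 0.47 (SE, adjusted p = 0.0393), and below 0 as well were Kcnmb1, Synpo2, Ppp1r12b and Myocd. Pln read 9.71 and 8.67 with E2 and 8.47, 8.88 and 8.64 with IGF1 in the knockout, so the gap of the littermates was not seen. Synm read 9.94 and 9.32 with E2 there, and Kcnma1 in littermates read 7.23, 7.46 and 7.29 with E2 and 8.08, 8.25 and 7.98 with IGF1. The count ran from 2, without knockout E2 replicate 1, to 9, and without any 1 of the 3 littermate E2 arrays, littermate IGF1 replicate 2, knockout E2 replicate 3 or knockout IGF1 replicate 3 it was 4 or 5. The Actg2 call was lost without Ex3aERKO littermate E2 24 h replicate 1, 2 or 3, Ex3aERKO littermate IGF1 24 h replicate 2 or 3, Ex3aERKO E2 24 h replicate 1 or 3 or Ex3aERKO IGF1 24 h replicate 2 (adjusted p 0.0652 to 0.158). The Des call was lost without Ex3aERKO littermate E2 24 h replicate 2 or 3, Ex3aERKO littermate IGF1 24 h replicate 1 or 2, Ex3aERKO E2 24 h replicate 1 or 3 or Ex3aERKO IGF1 24 h replicate 2 (adjusted p 0.0647 to 0.115). The Pln call was lost without Ex3aERKO E2 24 h replicate 1 (adjusted p = 0.0848). The Synm call was lost without Ex3aERKO littermate E2 24 h replicate 1, 2 or 3, Ex3aERKO littermate IGF1 24 h replicate 1 or 2, Ex3aERKO E2 24 h replicate 1 or Ex3aERKO IGF1 24 h replicate 1 or 3 (adjusted p 0.0524 to 0.183). Quantile normalization ended the calls of Actg2, Des and Synm (adjusted p 0.0633, 0.0857 and 0.0717), centring that of Synm (0.0707) and a replicate block that of Des (0.0569).

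At 2 h IGF1 moved some members in either knockout. In ERaUtcKO mice 8 rose and 7 fell, against 13.1% and 16.2% of all genes. In Ex3aERKO mice 3 rose and 3 fell, against 8.61% and 7.09%, and centring gave 3 and 2. In both the largest rises were Des, Smtn and Lmod1, leiomodin, an actin nucleator of smooth muscle. Des read 11.61, 11.80 and 11.17 under vehicle and 14.37, 14.20 and 14.39 with IGF1 in ERaUtcKO, and 10.74 and 11.15 and 13.84 and 13.03 in Ex3aERKO. It rose by 2.80 ± 0.26 (SE, adjusted p = 1.44e-08) and 2.49 ± 0.35 (SE, adjusted p = 6.29e-05), with no overlap. Smtn, at 10.23, 10.25 and 9.83 and 11.66, 11.57 and 12.04, and at 9.29 and 9.73 and 11.46 and 10.90, rose by 1.65 ± 0.19 (SE, adjusted p = 2.89e-07) and 1.67 ± 0.25 (SE, adjusted p = 0.000127). Lmod1, at 9.72, 9.46 and 9.64 and 11.02, 10.72 and 10.82, and at 9.49 and 9.42 and 10.94 and 10.22, rose by 1.25 ± 0.18 (SE, adjusted p = 8.9e-06) and 1.12 ± 0.35 (SE, adjusted p = 0.0333). Both Ex3aERKO arrays with IGF1 at 2 h were high in adipocyte markers, whose part was not tested.

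The largest early falls with IGF1 in ERaUtcKO mice were Pln, Ppp1r12b and Synm. Pln read 10.30, 10.26 and 10.35 under vehicle and 9.20, 9.39 and 9.13 with IGF1 and fell by 1.06 ± 0.20 (SE, adjusted p = 0.000201). Ppp1r12b, at 9.55, 9.44 and 9.29 and 8.34, 8.34 and 8.63, fell by 0.98 ± 0.12 (SE, adjusted p = 8.99e-07). Synm, at 10.20, 10.19 and 9.99 and 9.46, 9.26 and 9.86, fell by 0.60 ± 0.20 (SE, adjusted p = 0.0227), a call lost on centring (0.0531), without the arrays high in adipocyte markers (0.0684) and without ERaUtcKO vehicle replicate 1 or 2 or ERaUtcKO IGF1 2 h replicate 1 or 2 (adjusted p 0.0669 to 0.123). All 3 were below vehicle throughout. In Ex3aERKO mice Ppp1r12b, at 8.13 and 7.96 with IGF1, fell by 0.86 ± 0.15 (SE, adjusted p = 0.000505), Chrm3, at 6.18 and 6.51, by 0.74 ± 0.17 (SE, adjusted p = 0.00398), and Cacna1c, at 8.32 and 8.67, by 0.73 ± 0.24 (SE, adjusted p = 0.0433). With a replicate block Lmod1 and Cacna1c did not pass (0.0672 and 0.0966), nor did Cacna1c after centring (0.0535). The Lmod1 call was lost without Ex3aERKO vehicle replicate 2 or 3 or Ex3aERKO IGF1 2 h replicate 1 (adjusted p 0.115 to 0.279). The Chrm3 call was lost without Ex3aERKO vehicle replicate 2 or Ex3aERKO IGF1 2 h replicate 1 (adjusted p 0.061 to 0.0814). The Cacna1c call was lost without Ex3aERKO vehicle replicate 2 or 3 or Ex3aERKO IGF1 2 h replicate 1 (adjusted p 0.0874 to 0.262). The IGF1 response at 2 h was not found to differ from littermates in any member in either line, where limma gave 2 unadjusted p under 0.05 in each and called 0.511% of all genes in ERaUtcKO and 0% in Ex3aERKO.

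With E2 at 2 h the knockouts showed little. In ERaUtcKO mice none rose and 1 fell, against 0.398% and 0.0929% of all genes. It was Pln, at 10.30, 10.26 and 10.35 under vehicle and 9.60, 9.23 and 9.28 with E2, which fell by 0.94 ± 0.20 (SE, adjusted p = 0.0319). The call was lost without ERaUtcKO vehicle replicate 1, 2 or 3 or ERaUtcKO E2 2 h replicate 1, 2 or 3 (adjusted p 0.0539 to 0.143), and without the arrays high in adipocyte markers (0.102). With quantile normalization there were 3 calls, and with a filter on low values or a replicate block 2. In Ex3aERKO mice limma called no member, with 1 at an unadjusted p under 0.05 and 0.149% of all genes called.

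The early E2 response differed from littermates in 5 members in ERaUtcKO, 1 above 0 and 4 below, against 6.7% and 7.08% of all genes. Quantile normalization gave 2 and 4, and centring 1 and 5. Ppp1r14a, at 12.23, 12.15 and 11.33 in littermates and 10.79, 10.22 and 9.56 in the knockout, had an interaction of -1.62 ± 0.40 (SE, adjusted p = 0.0063). Cnn1, at 15.24, 14.73 and 14.75 and 14.67, 13.65 and 13.50, had -1.31 ± 0.39 (SE, adjusted p = 0.0237), and Jph2, at 8.97, 8.93 and 8.99 and 8.07, 7.55 and 7.73, had -1.04 ± 0.17 (SE, adjusted p = 0.000183). For these 3 no knockout array reached up to the littermates. Lmod1 had -0.77, and Pln, which fell further in littermates, had 1.33 ± 0.28 (SE, adjusted p = 0.00191). Without the arrays high in adipocyte markers 3 were called and Ppp1r14a was at -1.18 (adjusted p = 0.053). The Cnn1 call was lost without ERaUtcKO littermate vehicle replicate 2, ERaUtcKO littermate E2 2 h replicate 1, ERaUtcKO vehicle replicate 2 or ERaUtcKO E2 2 h replicate 2 or 3 (adjusted p 0.0636 to 0.0834). Without knockout E2 replicate 1 there were 8 calls, and without littermate vehicle replicate 2, littermate E2 replicate 1 or knockout E2 replicate 2 or 3 there were 3.

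In the Ex3aERKO experiment the early E2 interaction was called in 3 members, 2 above 0 and 1 below, against 4.58% and 4.85% of all genes, with 1 and 1 after centring. Jph2, at 7.07 and 7.17 under vehicle and 7.13 and 7.01 with E2 in the knockout, had an interaction of -1.38 ± 0.35 (SE, adjusted p = 0.0144). Its knockout arrays did not leave vehicle, as the littermate arrays had. Ppp1r12b, at 8.74 and 8.90 in the knockout and 8.47, 8.53 and 8.65 in littermates with E2, had 0.82 ± 0.20 (SE, adjusted p = 0.0132). Fhl1, at 8.36 and 8.09 and 7.98, 8.13 and 8.06, had 0.94 ± 0.27 (SE, adjusted p = 0.0321), which quantile normalization, centring, a replicate block and leaving out the arrays high in adipocyte markers each ended (0.0657, 0.0502, 0.0515 and 0.154). The Jph2 call was lost without Ex3aERKO littermate vehicle replicate 2, Ex3aERKO vehicle replicate 3 or Ex3aERKO E2 2 h replicate 3 (adjusted p 0.0514 to 0.0676). The Ppp1r12b call was lost without Ex3aERKO littermate vehicle replicate 3, Ex3aERKO vehicle replicate 3 or Ex3aERKO E2 2 h replicate 3 (adjusted p 0.0504 to 0.0676). The Fhl1 call was lost without Ex3aERKO littermate vehicle replicate 3, Ex3aERKO littermate E2 2 h replicate 1 or 3, Ex3aERKO vehicle replicate 2 or Ex3aERKO E2 2 h replicate 1 (adjusted p 0.0559 to 0.186). Without littermate vehicle replicate 3 or knockout E2 replicate 3 the count was 1.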

How the data were processed

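RNA of whole uterus was hybridised to Affymetrix arrays, 1 per sample. The deposited values are log2 intensities per probe set, normalized by the authors by a method not given in the sources used here, and the authors had removed outlier arrays by principal component analysis, per the labels' protocols. Genes were named from the platform annotation where a probe set carried 1 symbol, taking the probe set with the highest mean over 68 arrays, which left 30142 genes. Limma 3.58.1 in R 4.3.3 fitted treatment and mouse set to 42 wild-type arrays, and groups to 25 arrays of the Ex3aERKO and 29 of the ERaUtcKO experiment, with Benjamini-Hochberg adjustment over all genes and a threshold of 0.05. Interactions are knockout minus littermate responses. The script was tested on simulated data. The members and lists were chosen with earlier results of these data known. Named were all members, with values by sample for Acta2, Actg2, Myh11, Cnn1, Tagln, Des, Myocd and the 3 largest rises and falls called in each comparison, and, from the other lists, genes among the 2 largest called rises and falls. Srf was added after its values were seen. Alternatives were quantile normalization, centring on array medians, a filter on low values, the mean of probe sets, a trended robust prior, a replicate block, each wild-type set alone and each array left out. The number of arrays limits the precision.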

Additional observations from a re-analysis of the deposited data

Results flagged for a closer look

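Hormone responses of contractile genes that differed between a knockout and its littermates, by an interaction term in limma with p adjusted over all genes, are given here as values. With E2 at 2 h they numbered 3 in Ex3aERKO, where Jph2 had -1.38, and 5 in ERaUtcKO, where Ppp1r14a had -1.62. Ex3aERKO had 2 above 0 and 1 below, against 4.58% and 4.85% of all genes, and ERaUtcKO 1 and 4, against 6.7% and 7.08%. With E2 at 24 h they numbered 4 in Ex3aERKO, where Des had -1.78, and 14 in ERaUtcKO, where Actg2 had -2.70. Ex3aERKO had 2 above 0 and 2 below, against 6.34% and 10.5% of all genes, and ERaUtcKO 1 and 13, against 17.3% and 15.5%. For IGF1 minus E2 at 24 h they numbered 9 in Ex3aERKO, where Actg2 had 1.89, and 14 in ERaUtcKO, where Actg2 had 2.01. Ex3aERKO had 2 above 0 and 7 below, against 15.1% and 11.6% of all genes, and ERaUtcKO 11 and 3, against 16.1% and 12.9%. The knockout lines were not tested against each other.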

How the results depend on the processing

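No named call changed direction under the alternatives run. Quantile normalization turned the sign of the members' median, where few or none were called, for IGF1 at 24 h in Ex3aERKO (0.08 to -0.11) and for the ERaUtcKO interaction with IGF1 at 2 h (-0.06 to 0.05). Quantile normalization changed the count of members called to 2 for IGF1 against E2 at 24 h in Ex3aERKO, 5 for the corresponding interaction and 3 for E2 at 2 h in ERaUtcKO. A filter on low values gave 4 for Ex3aERKO under vehicle, 5 for the Ex3aERKO interaction with E2 at 2 h and 2 for E2 at 2 h in ERaUtcKO, where a replicate block also gave 2. C57Bl6 wild types alone gave 15 for E2 at 2 h, where 29.6% of all genes were called. The Ex3aERKO littermates alone gave 15 for E2 at 2 h, 16 at 24 h, 13 and 9 for IGF1, and 9 and 11 for IGF1 against E2. Of all genes 22.3%, 31.2%, 19.7%, 6.95%, 10.5% and 19.3% were called there, in that order. Those of ERaUtcKO alone gave 15 for E2 at 2 h, 11 for IGF1 at 2 h, and 9 and 6 for IGF1 against E2 at 2 h and 24 h. In the same order 30.4%, 19.9%, 9.3% and 10.5% of all genes were called. Leaving out the arrays high in adipocyte markers, an alternative chosen after seeing the data, gave 0 for E2 at 2 h in ERaUtcKO and 3 for its interaction. It could not be run for IGF1 at 2 h in Ex3aERKO.

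Leaving out 1 array at a time gave 20 to 24 calls for E2 at 2 h and 23 to 26 at 24 h in wild types, 18 to 20 and 23 to 26 for IGF1, and 14 to 15 and 20 to 21 for IGF1 against E2. In Ex3aERKO it gave 0 to 3 under vehicle, 1 to 7 for IGF1 at 24 h, 0 to 6 for IGF1 against E2, and interactions of 1 to 3 (E2, 2 h), 2 to 4 (E2, 24 h) and 2 to 9 (IGF1 against E2). In ERaUtcKO it gave 1 to 3 under vehicle, 0 to 0 for E2 at 2 h and 3 to 8 for its interaction. Replicate numbers gave no clear sign of pairing the samples. The median correlation of deviations between same-numbered arrays was -0.142, -0.003 and -0.004 in the C57Bl6, Ex3aERKO and ERaUtcKO sets. Between arrays of other numbers it was 0.051, -0.002 and -0.006. Of the same-numbered pairs, 8 of 26, 8 of 92 and 16 of 126 were above 0.1, a share not counted for the other pairs. Of the named calls, 44 in wild types, 28 in Ex3aERKO and 32 in ERaUtcKO, a replicate block ended 6, quantile normalization 12 and centring 9, while the filter, the mean of probe sets and the trended robust prior ended none. The number of arrays limits the precision, most of all in Ex3aERKO with 2 arrays in several groups.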
